A study of Mus musculus with 6 samples.

Results

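Integrins and the proteins of focal adhesions were described in immortalized cardiosphere-derived cells (iCDCs) of the mouse. The genes were taken by name from the deposited gene table, where all 45 were found among 54532 genes. They comprised 19 integrin subunits, of which 12 were alpha and 7 were beta subunits, and 26 cytoplasmic adhesion components. RNA sequencing was performed on 3 libraries of control iCDCs and 3 libraries of induced iCDCs. All cells had the C57BL/6 background, were labelled as heart ventricle, and came from one line that the study grew from the epicardium and immortalized with human telomerase reverse transcriptase carried by a lentivirus. Control and induced cells alike were at passage 30. According to the labels, induced iCDCs were given 5-azacytidine, an inhibitor of DNA methylation, at 10 µM for 3 days and were then kept for 4 weeks in IMDM with 2% fetal bovine serum. The medium and the length of that culture differ in the methods of the study. The labels do not say that the control cells were kept in low serum or for the same time, so drug, serum and time in culture cannot be told apart. The line is a single one, and the p-values measure the spread between libraries of that line.

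An integrin is a pair of 1 alpha and 1 beta subunit that spans the cell membrane and binds proteins of the extracellular matrix. Inside the cell, talin and kindlin bind the beta subunit tail, and adaptors, kinases and actin linkers gather there into the focal adhesion. In the heart, integrins hold myocytes and stromal cells to their matrix, and the alpha7 subunit is the main laminin receptor of muscle.

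Total reads ranged from 19041133 to 19823369 per library, and the 45 genes together took between 0.861% and 0.930% of them. A count of 0 in a library allowed up to 0.151 to 0.158 CPM (reads scaled to a fixed library total), for counting error only. Of the 45 genes, 40 had enough reads to be tested. In the quasi-likelihood test of edgeR, with p-values adjusted over all tested genes by the method of Benjamini and Hochberg, 28 of these 40 (70%) passed an adjusted p of 0.05, beside 64.8% of all 14246 tested genes. The number higher in induced cells was 16, or 40%, beside a background of 32.6%. The number lower was 12, or 30%, beside a background of 32.2%. A call with a difference of 2-fold or more was made for 9 of the 40 (22.5%), beside 17.1% of all genes. The share of members called was thus near the background, and the results concern which members moved. The cells were sequenced in bulk, so fewer cells of a type and less RNA per cell cannot be told apart.

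Integrin subunits moved more widely than the cytoplasmic components. Among 15 tested subunits, 9 rose (60%), 3 fell (20%) and 3 were not called, and the median log2 fold change was 0.45. Among 25 tested cytoplasmic components, 7 rose (28%), 9 fell (36%) and 9 were not called, and the median was 0.02. Of all tested genes, 32.6% rose and 32.2% fell, so the counts of the cytoplasmic components were near that background. The median size of the log2 fold change, without its sign, was 0.80 for the subunits, 0.19 for the cytoplasmic components and 0.36 for all tested genes. The difference between both sets was not tested.

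**Figure D1:**
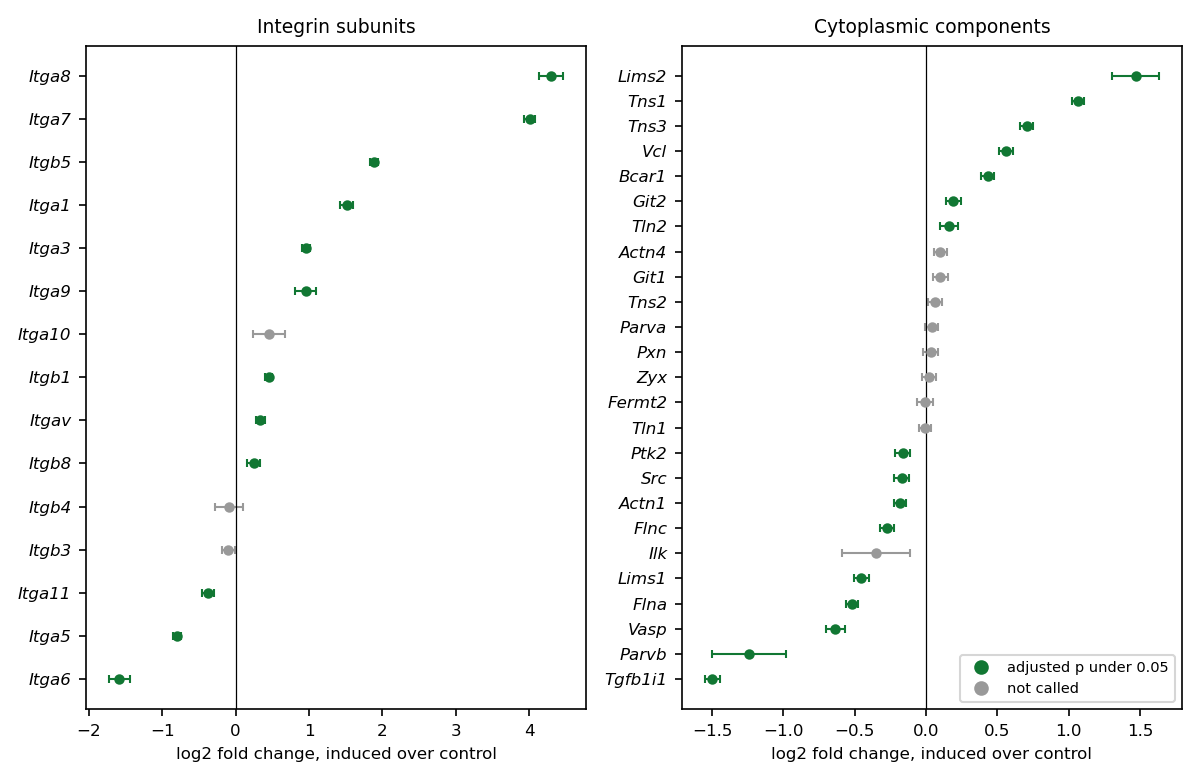
Fitted log2 fold changes (induced over control, horizontal axis) of the 15 integrin subunits (left) and 25 cytoplasmic components (right) that were tested, with standard errors as bars, green where the adjusted p was under 0.05 and grey where not. Itga8 and Itga7 stood apart at 4.30 and 4.00, whereas the cytoplasmic components lay between -1.50 and 1.47.

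Levels are given as RPKM, which here means TMM-scaled CPM divided by the deposited gene length in kilobases, so that genes can be compared with each other. Laminin-binding alpha subunits were described first. Itga7 (ENSMUSG00000025348, chromosome 10, 128933818 to 128958282, plus strand), the muscle laminin receptor subunit, had 0.939, 1.13 and 1.15 RPKM in the control libraries and 17.7, 17.1 and 16.9 RPKM in the induced libraries. Every induced library was far above every control library. The difference was 16.0-fold (log2 fold change 4.00, SE 0.07, adjusted p 4.02e-18). Itga3, another laminin-binding subunit, had 14.8, 14.6 and 14.6 RPKM in control cells and 30.2, 27.9 and 27.3 RPKM in induced cells. Its level rose by a log2 fold change of 0.96 (SE 0.05, adjusted p 1.64e-11), with no overlap between the groups. Itga6 (ENSMUSG00000027111, chromosome 2, 71745616 to 71858416, plus strand), whose product pairs with beta1 or beta4, went the other way. It had 1.01, 0.994 and 1.17 RPKM in control cells and 0.336, 0.385 and 0.337 RPKM in induced cells, from 567 reads against 181. This was a fall to 0.333 of the control level (log2 fold change -1.59, SE 0.14, adjusted p 1.73e-08), again without overlap.

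RGD-binding alpha subunits recognize a short motif of fibronectin, vitronectin and related proteins. Itga5 (ENSMUSG00000000555, chromosome 15, 103344286 to 103366763, minus strand) encodes the alpha chain of the main fibronectin receptor and was the most abundant alpha subunit of control cells. It had 35.3, 33.7 and 35.2 RPKM in control libraries and 21.0, 19.6 and 19.2 RPKM in induced libraries. The groups did not overlap, and the level fell to 0.574 of the control (log2 fold change -0.80, SE 0.05, adjusted p 1.61e-10). Itgav, the alpha chain that pairs with several beta subunits, had 15.9, 15.4 and 15.1 RPKM in control cells and 18.9, 21.9 and 17.8 RPKM in induced cells. All 3 induced libraries were higher, by a log2 fold change of 0.34 (SE 0.06, adjusted p 1.38e-04). Itga8 (ENSMUSG00000026768, chromosome 2, 12106632 to 12301922, minus strand), the nephronectin receptor subunit, had the largest fold change of the members in the edgeR fit. It had 24, 14 and 30 reads in the control libraries and 400, 478 and 414 reads in the induced libraries. These were 0.165, 0.0968 and 0.204 RPKM against 2.89, 3.41 and 2.94 RPKM, a 19.7-fold difference (log2 fold change 4.30, SE 0.17, adjusted p 9.06e-14). Its induced level remained lower than those of Itga5 and Itgav.

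The collagen-binding subunits were split. Itga1 (ENSMUSG00000042284, chromosome 13, 114953096 to 115101964, minus strand), a receptor chain for basement membrane collagen, had 0.785, 0.778 and 0.700 RPKM in control cells and 1.90, 2.30 and 2.26 RPKM in induced cells. The groups did not overlap, and the rise was 2.86-fold (log2 fold change 1.51, SE 0.09, adjusted p 2.59e-11). Itga11, a receptor chain for fibrillar collagen in fibroblasts, fell from 3.90 ± 0.184 to 3.01 ± 0.167 RPKM (SD, n = 3; log2 fold change -0.37, edgeR adjusted p 8.29e-04). Itga10 had 0.354 ± 0.0229 and 0.488 ± 0.0240 RPKM (SD, n = 3) and was not called (edgeR adjusted p 0.0718; 0.0259 to 0.223 over 17 other settings, the lowest with limma on FPKM), and another gene model covers 33.5% of its exon sequence. Itga2 was not tested, having 2, 3 and 2 reads in control libraries and 3, 2 and 4 in induced libraries. Of the remaining alpha chains, Itga9 rose from 0.537 ± 0.0879 to 1.04 ± 0.0602 RPKM (SD, n = 3; log2 fold change 0.95, edgeR adjusted p 1.79e-05). Itga4 had 4, 3 and 2 reads against 8, 16 and 8 and was not tested.

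Beta subunits were led by Itgb1, the shared partner of most alpha chains. It had 195, 195 and 194 RPKM in control cells and 254, 277 and 266 RPKM in induced cells. The rise was small in proportion (log2 fold change 0.45, SE 0.04, adjusted p 3.52e-08), but no induced library reached down to a control library. Itgb5 (ENSMUSG00000022817, chromosome 16, 33829665 to 33949338, plus strand) encodes the partner of alphav in the vitronectin receptor alphavbeta5. It had 36.7, 35.4 and 36.2 RPKM in control cells and 141, 128 and 131 RPKM in induced cells, a 3.69-fold difference (log2 fold change 1.88, SE 0.05, adjusted p 5.42e-16). Itgb5 thus stood second among the subunits, after Itgb1, in every library of both groups, closely followed by Itga5 in control cells. Itgb3, the other vitronectin receptor chain, had 2.93, 2.76 and 3.10 RPKM in control cells and 2.79, 2.56 and 2.84 RPKM in induced cells. Its groups overlapped, and the log2 fold change of -0.10 (SE 0.09, adjusted p 0.321) had a 95% interval of -0.29 to 0.08. Itgb8 rose by a log2 fold change of 0.25 (adjusted p 0.0185), a call lost by DESeq2, without control replicate 3 and without induced replicate 3 (adjusted p 0.0685, 0.0682 and 0.0567). Its adjusted p ranged from 0.0144 to 0.168 over 17 other settings. Itgb4, the hemidesmosome chain, was at 0.503 ± 0.108 and 0.471 ± 0.00715 RPKM (SD, n = 3) and was not called (edgeR adjusted p 0.691). Itgb6 had 2, 0 and 0 reads against 1, 0 and 0, and Itgb7 had 4, 5 and 7 reads against 1, 2 and 10, so neither was tested.

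**Figure D2:**
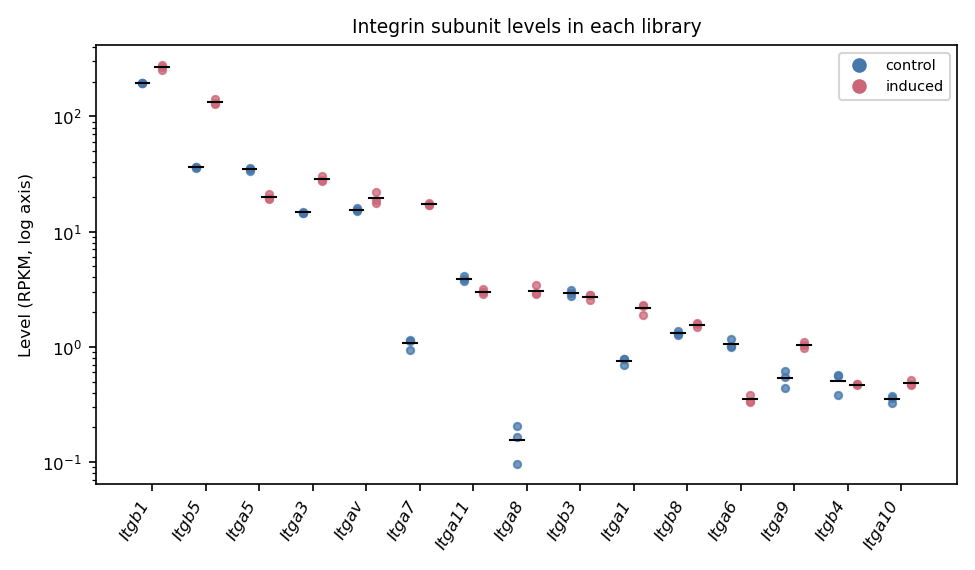
RPKM on a log axis of the 15 tested integrin subunits, ordered by their highest level, with 1 point per library (blue control, red induced) and a black bar at the mean of 3 libraries. Itgb1 and Itgb5 lead in the induced libraries, and the points of Itga7 and Itga8 are widely separated between the groups, while those of Itgb3 and Itgb4 overlap.

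Because most subunits moved by different amounts, the composition of the alpha chains was compared within each library. The laminin-binding class, that is Itga3, Itga6 and Itga7, held 22.7%, 23.4% and 23.1% of the summed alpha RPKM in control libraries. It held 49.4%, 46.8% and 48.7% in induced libraries. The gain was 25.2 percentage points (exact permutation test over 6 libraries, two-sided, p = 0.1). The RGD-binding class held 69.9%, 68.9% and 69.0% in control libraries and 43.8%, 46.3% and 43.7% in induced libraries. It dropped by 24.6 percentage points (exact permutation p = 0.1). With 3 libraries against 3, a p of 0.1 is the smallest this test can give, and the groups did not overlap for either class. The collagen-binding class held 6.91% ± 0.230 and 5.96% ± 0.333, and the alpha4 and alpha9 class 0.752% ± 0.110 and 1.13% ± 0.0930 (SD, n = 3, each with an exact permutation p of 0.1).

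3 subunits accounted for most of this shift. The share of Itga5 was 47.8% ± 0.527 in control cells and 20.9% ± 0.655 in induced cells (SD, n = 3). The share of Itga7 was 1.48% ± 0.174 and 18.1% ± 0.398, and that of Itga3 was 20.2% ± 0.247 and 29.9% ± 1.10. The share of Itgav, by contrast, was 21.3% ± 0.580 and 20.5% ± 1.82, ranges that overlapped. In induced cells Itga3 came first, and Itga5, Itgav and Itga7 followed with mean levels of 19.9, 19.5 and 17.2 RPKM. Itga5 and Itgav in induced cells overlapped between libraries, whereas all 3 libraries of Itga7 lay below those of Itgav.

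**Figure D3:**
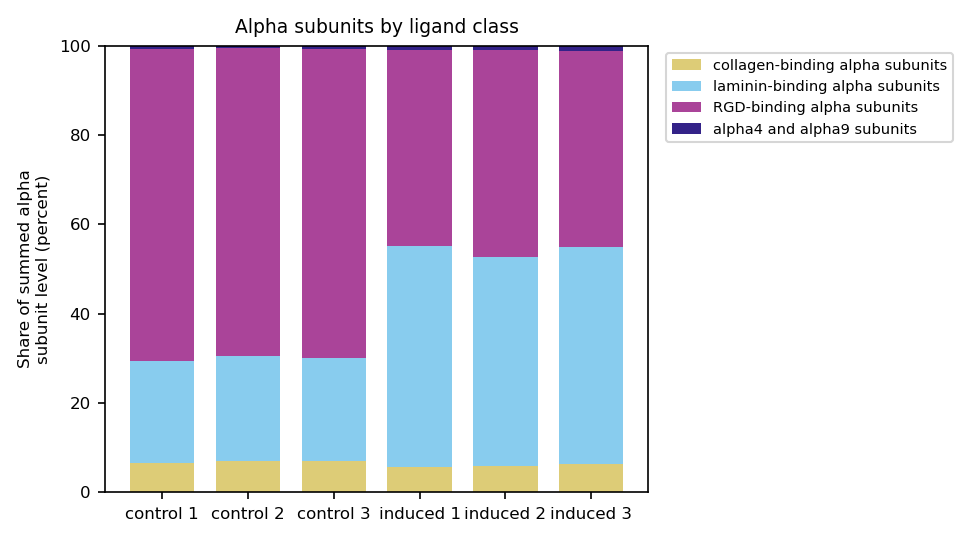
Share of the summed alpha subunit RPKM (percent, stacked to 100) taken by each ligand class in each of the 6 libraries. The laminin-binding class covers 22.7% to 23.4% of the control bars and 46.8% to 49.4% of the induced bars, and the RGD-binding class shrinks in all 3 induced bars.

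Among the beta chains, Itgb1 held 82.6% ± 0.278 of the summed RPKM in control cells and 65.8% ± 2.02 in induced cells, although its own level rose. Itgb5 held 15.3% ± 0.262 and 33.0% ± 1.99 (SD, n = 3). The summed alpha level was 72.7 ± 1.16 RPKM in control cells and 95.4 ± 3.51 RPKM in induced cells, and the summed beta level was 235.6 ± 0.658 and 403.8 ± 5.12 RPKM (SD, n = 3). In both groups the beta chains thus exceeded the alpha chains in RNA. These are RNA levels, and pairing at the protein level was not measured.

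Cytoplasmic components are given from the receptor inwards. Talins and kindlins bind the integrin tail and activate it, and vinculin reinforces the bond to actin. Tln1 had 54.6, 55.0 and 57.9 RPKM in control cells and 57.8, 54.7 and 54.0 RPKM in induced cells. The groups overlapped, with a log2 fold change of -0.01 and a 95% interval of -0.10 to 0.09. Fermt2, the most abundant kindlin gene here, was at 21.2 ± 0.628 and 21.1 ± 1.21 RPKM (SD, n = 3), with an interval of -0.12 to 0.11. Vcl had 40.4, 41.5 and 42.7 RPKM in control cells and 60.4, 64.6 and 58.7 RPKM in induced cells. It rose without overlap (log2 fold change 0.56, SE 0.05, adjusted p 7.02e-09), and Ap3m1 on the opposite strand covers 25.5% of its exon sequence. Tln2 had 2.46, 2.56 and 2.31 RPKM against 2.66, 2.56 and 2.97 RPKM, and its call (log2 fold change 0.16, adjusted p 0.0344) was lost with DESeq2, where the adjusted p was 0.0780. Without control replicate 1, control replicate 3 or induced replicate 3, the adjusted p of Tln2 was 0.0795, 0.151 and 0.193, and over 17 other settings it ranged from 0.00344 to 0.774. Fermt1 had 1, 1 and 0 reads against 0, 0 and 1. The remaining kindlin gene, Fermt3, is not among the 45 genes and was named after its values were seen. It had 34 and 130 reads in all, at 0.222 and 0.883 RPKM. Fermt3 passed the filter on low counts through the induced group, so no test is given.

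The complex of integrin-linked kinase, parvin and PINCH joins the beta tail to actin, and its 2 PINCH genes moved in opposite directions. Lims1, which encodes PINCH1, had 30.6, 30.6 and 31.1 RPKM in control cells and 22.3, 23.7 and 21.5 RPKM in induced cells. It fell by a log2 fold change of -0.45 (SE 0.05, adjusted p 3.52e-07). Lims2 (ENSMUSG00000024395, chromosome 18, 31931325 to 31958619, plus strand), which encodes PINCH2, had 1.28, 1.05 and 1.11 RPKM in control cells and 3.57, 2.57 and 3.38 RPKM in induced cells. It rose 2.77-fold (log2 fold change 1.47, SE 0.17, adjusted p 3.34e-07), from 178 reads to 473 in all. Even so, Lims1 remained the more abundant gene in every library. Parva, the widely expressed alpha-parvin, had 28.3, 28.1 and 28.9 RPKM against 29.2, 30.0 and 28.5 RPKM, with overlap, a log2 fold change of 0.04 and an adjusted p of 0.465. Parvb (ENSMUSG00000022438, chromosome 15, 84232043 to 84315688, plus strand), the beta-parvin, had 0.643, 0.462 and 0.567 RPKM against 0.217, 0.226 and 0.261 RPKM. It fell to 0.423 of the control level (log2 fold change -1.24, SE 0.26, adjusted p 3.77e-04), on 146 and 59 reads. Ilk, the kinase gene of the complex, was not called on 133 reads in control and 100 in induced libraries (adjusted p 0.210). Of its exon sequence 89.7% is shared with Taf10 and Rrp8, and the strand setting of the counting is not given in the sources used here, so its level is uncertain.

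Of 7 signalling and docking proteins, 2 rose (28.6%), 3 fell (42.9%) and 2 were not called, beside backgrounds of 32.6% and 32.2%. Of these 7, 1 changed at least 2-fold (14.3%, background 17.1%). Tgfb1i1 (ENSMUSG00000030782, chromosome 7, 128246812 to 128255699, plus strand) encodes Hic-5, a relative of paxillin that is prominent in smooth muscle and myofibroblasts. It had 20.4, 21.1 and 20.8 RPKM in control cells and 7.42, 6.97 and 7.66 RPKM in induced cells. The groups were far apart, and the level fell to 0.354 of the control (log2 fold change -1.50, SE 0.06, adjusted p 5.10e-14). Pxn, the paxillin gene itself, was at 11.8 ± 0.343 and 12.1 ± 0.358 RPKM (SD, n = 3; log2 fold change 0.03, edgeR adjusted p 0.606, 95% interval -0.08 to 0.14). Bcar1, the p130Cas docking protein, rose from 40.6 ± 1.10 to 54.7 ± 1.81 RPKM (SD, n = 3; log2 fold change 0.43, edgeR adjusted p 2.54e-07). Src fell from 22.6 ± 0.859 to 20.04 ± 0.568 RPKM (SD, n = 3; edgeR adjusted p 0.00822), a call lost without control replicate 2, where the adjusted p was 0.0612, the highest of 17 other settings, which began at 0.00213. Ptk2, the focal adhesion kinase, was at 6.60 ± 0.160 and 5.89 ± 0.282 RPKM (SD, n = 3; log2 fold change -0.16, edgeR adjusted p 0.0131). That call did not hold without control replicate 1 or induced replicate 3 (adjusted p 0.0701 and 0.0807), and over 17 other settings its adjusted p ranged from 2.00e-04 to 0.260. Ptk2 lies on chromosome 15, whose 561 tested genes had a median log2 fold change of -0.24, while the medians of the other chromosomes lay between -0.06 and 0.17. Relative to that median, Ptk2 was at 0.07 (adjusted p 0.260), so its direction turned. Itga5 and Parvb lie on the same chromosome and remained lower relative to it, at -0.56 and -1.01. Git1 had 30.5, 30.9 and 32.8 RPKM against 35.2, 32.5 and 33.2 RPKM and was not called (adjusted p 0.0995), save without induced replicate 2 (adjusted p 0.0125; 17 other settings gave 0.0125 to 0.292). Its relative Git2 had 2.76, 2.79 and 2.76 RPKM against 3.28, 3.11 and 3.10 RPKM and was called (log2 fold change 0.19, adjusted p 0.00435).

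Actin linkers included the most abundant cytoplasmic members. Flna, the main filamin, had 199.8, 202 and 211 RPKM in control cells and 147, 138 and 143 RPKM in induced cells. All induced libraries were lower (log2 fold change -0.52, SE 0.04, adjusted p 2.64e-09). The muscle filamin Flnc had 58.2, 55.9 and 58.0 RPKM against 50.8, 46.2 and 45.3 RPKM and fell by less (log2 fold change -0.27, SE 0.05, adjusted p 7.33e-05). Actn4 had 106, 109 and 114 RPKM against 124, 112 and 116 RPKM, with overlap and no call (adjusted p 0.0733). DESeq2, the fit with no filter and the fit without induced replicate 2 called Actn4 (adjusted p 0.0468, 0.04998 and 0.00321). The 17 other settings gave 0.00321 to 0.720. Actn1 had 73.8, 72.7 and 73.7 RPKM against 67.3, 63.9 and 62.8 RPKM and fell (log2 fold change -0.18, SE 0.04, adjusted p 0.00151). Zyx, the zyxin gene, had 98.7, 99.2 and 98.7 RPKM against 106, 94.2 and 101 RPKM, with an interval of -0.08 to 0.12. Vasp, which promotes actin filament growth, fell from 52.6 ± 3.20 to 33.8 ± 3.40 RPKM (SD, n = 3; log2 fold change -0.64, edgeR adjusted p 1.31e-07).

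Tensins tie integrins to actin in mature, fibrillar adhesions, and of Tns1, Tns2 and Tns3 the first and the last rose. Tns1 (ENSMUSG00000055322, chromosome 1, 73910231 to 74124449, minus strand) had 18.5, 19.04 and 19.1 RPKM in control cells and 39.8, 39.4 and 39.2 RPKM in induced cells. This was a 2.09-fold difference (log2 fold change 1.06, SE 0.04, adjusted p 1.54e-13) with very little spread in either group. Tns3 had 17.4, 17.9 and 17.0 RPKM against 28.9, 29.1 and 27.4 RPKM (log2 fold change 0.70, SE 0.05, adjusted p 2.34e-10). Tns2 was at 30.0 ± 0.170 and 31.4 ± 1.17 RPKM (SD, n = 3) and was not called (edgeR adjusted p 0.264). It also lies on chromosome 15 and was at 0.30 (adjusted p 2.61e-05) relative to the median of that chromosome, while its adjusted p reached 0.663 in another of the 17 settings. In control cells Tns2 had the highest level of the tensins, and in induced cells Tns1 did. Tns4, which is not among the 45 genes and was named after its values were seen, rose from 419 to 1128 reads (log2 fold change 1.49, adjusted p 7.11e-10), at 1.37 and 3.84 RPKM.

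**Figure D4:**
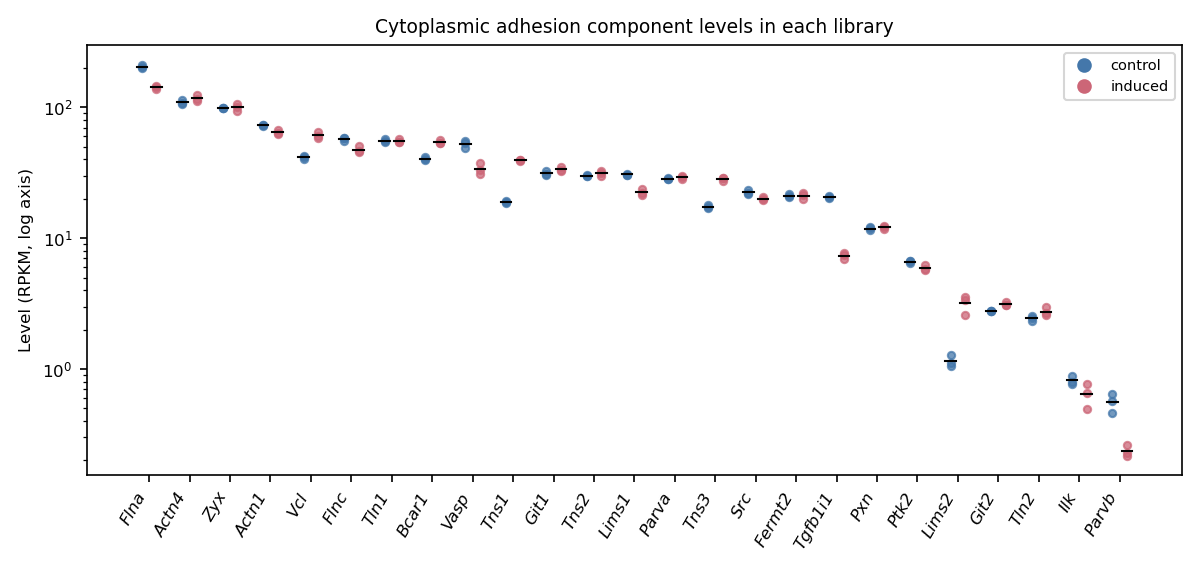
RPKM on a log axis of the 25 tested cytoplasmic components, ordered by their highest level, with 1 point per library (blue control, red induced) and a black bar at the mean of 3 libraries. Most genes differ little between the groups, and Tns1, Tgfb1i1, Lims2 and Parvb show the widest gaps.

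Related genes were then set against each other within a library, since such a ratio does not depend on how libraries are scaled. The log2 ratio of Itga3 to Itga6 reads was 3.21, 3.22 and 2.98 in control cells and 5.83, 5.52 and 5.68 in induced cells, a difference of 2.54. The ratio of Itgb3 to Itgb5 was -2.92, -2.95 and -2.82 against -4.92, -4.92 and -4.80, a difference of -1.99. The ratio of Itga5 to Itgav was 0.03, 0.0040 and 0.10 against -0.97, -1.28 and -1.01, a difference of -1.13. In reads, both were thus nearly equal in control cells, and Itgav led in every induced library. Itgav has the greater gene length, however, and per kilobase Itga5 led in control cells (means of 34.7 and 15.5 RPKM). In induced cells the means of Itga5 and Itgav were 19.9 and 19.5 RPKM. The ratio of Lims1 to Lims2 was 5.48, 5.77 and 5.71 against 3.54, 4.11 and 3.57, a difference of -1.92. That of Parva to Parvb was 6.66, 7.13 and 6.87 against 8.28, 8.25 and 7.97, a difference of 1.28. The PINCH pair therefore drew closer in reads and the parvin pair drew apart. Itga5 and Parvb lie on chromosome 15, whose tested genes had a median log2 fold change of -0.24, whereas Itgav and Parva do not. Neither these ratios nor the class shares above were adjusted for that median. Smaller differences were found for Tns1 to Tns3 (0.36), Actn1 to Actn4 (-0.28), Flna to Flnc (-0.24) and Git1 to Git2 (-0.09). The groups did not overlap for these 9 pairs, each with an exact permutation p of 0.1 (0.111 adjusted over the 10 pairs). With 64.8% of all tested genes called, ratios that do not overlap are common, and no background over other pairs was computed. Tln1 to Tln2 differed by -0.17 with overlapping groups (exact permutation p = 0.2).

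**Figure D5:**
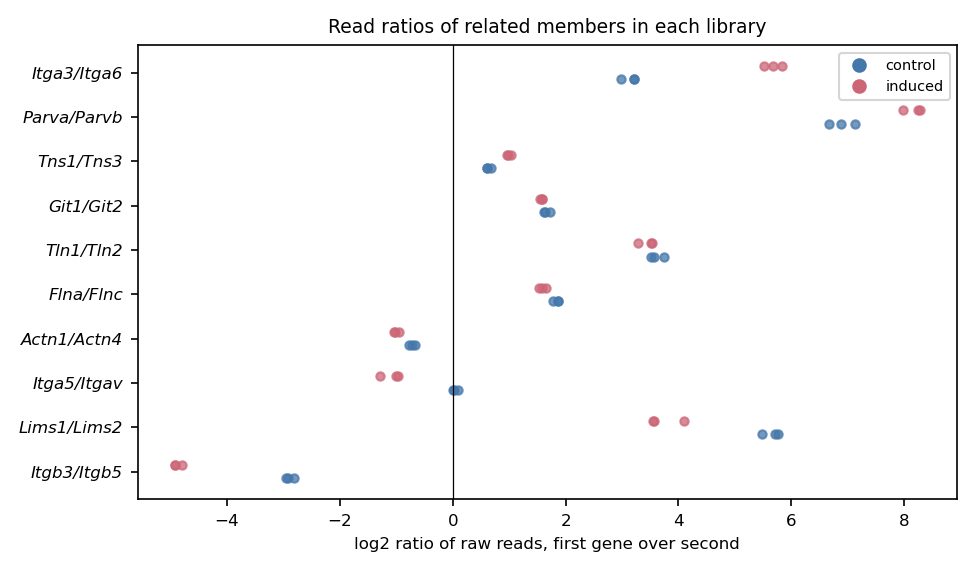
Log2 ratio of raw reads of the first gene over the second (horizontal axis) for 10 pairs of related genes, with 1 point per library (blue control, red induced). Itga3/Itga6, Parva/Parvb and Tns1/Tns3 lie further right in induced libraries, and Itgb3/Itgb5, Lims1/Lims2 and Itga5/Itgav lie further left.

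The inducing drug inhibits DNA methylation, which in mammals sits mainly on cytosines followed by guanine. The sequence upstream of the members' starts was therefore read for CG, although methylation itself was not measured. Sequences are those of RefSeq on GRCm38.p6, 250 bases ending just before the transcript start, and 35 of the 45 genes matched, with 44 starts in all. CG is its own reverse complement, so both strands gave the same count. Printed here are the 5 members that were called with at least a 2-fold change and have an entry, 5′ to 3′ on the gene's strand, with each CG in capitals.
Itga1, chr13:115101965-115102214, minus strand: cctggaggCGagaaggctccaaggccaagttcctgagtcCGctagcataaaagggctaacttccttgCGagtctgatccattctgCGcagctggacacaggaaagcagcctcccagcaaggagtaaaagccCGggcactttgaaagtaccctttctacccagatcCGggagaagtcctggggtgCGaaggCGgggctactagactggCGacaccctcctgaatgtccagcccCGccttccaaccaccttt
Itga8, chr2:12301945-12302194, minus strand: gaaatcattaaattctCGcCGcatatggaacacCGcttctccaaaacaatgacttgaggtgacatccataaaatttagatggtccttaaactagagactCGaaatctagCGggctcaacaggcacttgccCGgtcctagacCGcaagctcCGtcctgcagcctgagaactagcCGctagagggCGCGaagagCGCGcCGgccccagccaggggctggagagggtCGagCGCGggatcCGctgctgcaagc
Itgb5, chr16:33829415-33829664, plus strand: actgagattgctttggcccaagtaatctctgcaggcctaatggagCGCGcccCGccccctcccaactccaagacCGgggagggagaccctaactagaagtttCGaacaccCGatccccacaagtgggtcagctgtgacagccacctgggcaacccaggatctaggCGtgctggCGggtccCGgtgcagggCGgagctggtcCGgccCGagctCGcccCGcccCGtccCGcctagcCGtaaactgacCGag
Tns1, chr1:74124549-74124798, minus strand: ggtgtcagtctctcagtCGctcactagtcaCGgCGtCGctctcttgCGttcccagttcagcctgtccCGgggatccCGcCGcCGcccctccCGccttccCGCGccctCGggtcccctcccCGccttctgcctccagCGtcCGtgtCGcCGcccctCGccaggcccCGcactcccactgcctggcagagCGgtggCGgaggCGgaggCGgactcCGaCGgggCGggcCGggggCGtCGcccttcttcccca
Parvb, chr15:84231793-84232042, plus strand: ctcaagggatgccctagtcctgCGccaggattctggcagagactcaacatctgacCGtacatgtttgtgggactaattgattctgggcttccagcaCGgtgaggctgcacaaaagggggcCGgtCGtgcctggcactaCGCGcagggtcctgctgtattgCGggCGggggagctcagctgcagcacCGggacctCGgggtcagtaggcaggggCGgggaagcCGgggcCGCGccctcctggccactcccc
These windows hold 10 CG in Itga1, 18 in Itga8, 18 in Itgb5, 30 in Tns1 and 15 in Parvb. The 4 genes that rose thus ranged from 10 to 30, and Parvb, which fell, lay within that range. The median was 18 over the 38 windows of tested members and 15 over the windows of all tested genes. It was 15 over all 44 windows of the members and 6 over all 32851 windows, of which 92.1% hold at least 1 CG. These differences were not tested.

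Genes around the members were counted by lists. Of 53 tested genes for other integrins and adhesion proteins, 24 rose (45.3%, background 32.6%) and 15 fell (28.3%, background 32.2%), with a median log2 fold change of 0.06. Kank4 and Sorbs2, adaptors next to talin and vinculin, were the largest rises of well-measured genes there (log2 fold changes 2.48 and 2.34, adjusted p 5.29e-09 and 2.88e-10). Pak1, a kinase downstream of Rac, and Enah, a relative of Vasp, were the largest falls (-1.35 and -1.31, adjusted p 1.15e-10 and 1.20e-10). Of 30 tested integrin ligands, 16 rose (53.3%) and 11 fell (36.7%), and 15 changed at least 2-fold (50%, beside 17.1% of all genes). Postn and the basement membrane collagen gene Col4a1, whose product is a ligand of the Itga1 product, rose most among ligands with at least 5 CPM in the higher group (log2 fold changes 3.71 and 2.02). Below that level, Lama3 went from 4 to 62 reads and Lamb3 from 17 to 101. Ltbp1 and the laminin chain Lama4 fell most at that level (-3.07 and -1.55). Other ligands were named after their values were seen. Fn1, the fibronectin ligand of the Itga5 product, fell from 676 ± 17.0 to 358 ± 18.3 RPKM (SD, n = 3; log2 fold change -0.92, edgeR adjusted p 7.91e-13). Among laminin chains, Lamb2 rose (log2 fold change 1.18) and Lamb1 fell (-1.39), so the laminin ligands did not share 1 direction.

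Marker lists moved with the groups as well, in summed CPM. The 6 cardiosphere and epicardial markers had 820.3 to 831 in control libraries and 1566 to 1717 in induced libraries. Within that list Upk3b rose from 254 to 942 CPM, while Tbx18 was lowered, with means of 63.7 and 50.7 CPM (adjusted p 4.29e-04). The 6 smooth muscle markers had 1041 to 1100 and 637 to 704. Most of that sum was Acta2, which fell from 945 to 489.5 CPM. Cnn1 and Lmod1 fell as well (log2 fold changes -3.10 and -1.73, adjusted p 4.90e-11 and 2.05e-09). Myh11 and Smtn, by contrast, rose (log2 fold changes 2.79 and 0.73, adjusted p 3.74e-10 and 2.42e-10). Tagln was not called, on 102 reads in control and 64 in induced libraries. Of its exon sequence 67.9% is shared with Gm48529 and Pcsk7, so its level is uncertain. The 6 cardiomyocyte markers had 12.9 to 16.1 and 59.0 to 62.7, nearly all from Tnnt2, while Myh6 had 0 and 1 reads and Actn2 0 and 8. All 8 reads of Actn2 were in induced library 2. The 5 epithelial markers had 30.1 to 32.6 and 39.9 to 49.4. Krt19, nearly the whole control sum, fell from 30.3 to 12.8 CPM (log2 fold change -1.24, adjusted p 2.74e-07), while Krt8 and Krt18 went from 5 and 4 reads to 713 and 1022. The sums thus hide members that moved in opposite directions. The 6 endothelial markers had 1.60 to 1.89 and 1.21 to 2.31. The 6 leukocyte markers had 7.66 to 8.77 and 34.9 to 39.8, through Cd68, while Ptprc, Itgam, Tyrobp and Cd52 were at 0 in all libraries, although Itgam shares 68.7% of its exon sequence with another gene model. The part of these lists in the changes of the integrins and adhesion components was not tested.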

How the data were processed

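RNA from 3 control and 3 induced samples was sequenced, and the authors deposited 1 table of raw counts per gene, with FPKM values beside them. The submitters' processing notes name HISAT2 2.0.5, featureCounts 1.5.0-p3, DESeq2 1.16.1 and the build mm10; their roles, the annotation release and the strand setting are not given in the sources used here. The methods of the study name another DESeq version and fewer replicates. The deposited FPKM were the count over gene length and a depth of 0.980 to 1.03 times the library total. The authors also deposited gene length, as another column used here for RPKM. Their fold changes, p-values, group means and gene ontology tables were not used. The coordinates were those of the deposited table, of which 98.3% are the same in GENCODE M21 (GRCm38), used for exon overlap.

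Counts were fitted in R 4.3.3 with edgeR 4.0.16 (filterByExpr, minimum count 10, minimum total 15; TMM; two-sided quasi-likelihood test; Benjamini-Hochberg at 0.05), which left 14246 genes with 99.9% of the reads. Standard errors were the size of the log2 fold change over the square root of the F statistic of its test. From these, 95% intervals used the t quantile of that fit. No pair of libraries within a group was as alike as sampling noise allows (chi-square per degree of freedom 2.56 to 8.91). The scripts were tested on simulated data. The members and gene lists were chosen with earlier results of these data known. Values per library are given for members changed at least 2-fold, the 3 highest members of each kind and the related pairs; from the other lists, the 2 largest rises and falls at 5 or more CPM. Alternatives were DESeq2 1.42.0, limma 3.58.1 on log2(FPKM + 1) and log2(FPKM + 0.1), other scalings and filters, a stricter threshold, a replicate block, offsets for chromosome and gene length, and leaving out each library.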

Additional observations from a re-analysis of the deposited data

How the results depend on the processing

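The depth limits 5 of the 45 genes, which had too few reads to be tested, and Itga8, Parvb, Lims2, Ilk and Itga10 had 68, 146, 178, 133 and 109 reads summed over the control libraries. No alternative moved the number of subunits, cytoplasmic components or all genes called in either direction by over 1.5 times. All genes called numbered 7783 to 9765, subunits higher 8 to 10 and lower 3, and cytoplasmic components higher 5 to 9 and lower 8 to 10. The 9 members changed at least 2-fold kept their direction and call in all 17 alternatives, though limma on log2(FPKM + 1), which understates low genes, gave Itga8 a log2 fold change of 1.82, Itga6 -0.60, Itga1 0.85 and Parvb -0.33, so that Itga7 then led at 3.14. Over the 17 alternatives, the lowest log2 fold changes of Lims2 and Tns1 were 0.96 and 0.93, both under 2-fold. In all, 627 of 680 values of single members under an alternative kept direction and call. The median log2 fold change of the subunits was 0.32 and 0.38 with limma on log2(FPKM + 1) and log2(FPKM + 0.1), and 0.40 with the gene length offset. That of the cytoplasmic components was -0.018 with library totals alone, 0.050 with the chromosome offset and -0.068 with the gene length offset. Same-numbered libraries did not deviate together (correlations -0.05, -0.04 and 0.04; 2 of 6 libraries correlated best with their own number), so the numbers were not taken as pairs. With the replicate block, 9063 genes were called in place of 9225. It ended the call of Tln2 (adjusted p 0.0512), and it changed no other member's call.

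The direction turned for Ptk2 with the chromosome offset (0.072) and, among members that were not called, near 0. The cause was not tested. With DESeq2, median-ratio size factors, and limma on log2(FPKM + 1) and log2(FPKM + 0.1), Tln1 was at 0.0037, 0.0031, 0.0035 and 0.0036 and Fermt2 at 0.0044, 0.0038, 0.0031 and 0.0032. Tln1 was at 0.027 with the chromosome offset. With library totals alone, Pxn was at -0.0054 and Zyx at -0.018. With the gene length offset, Parva was at -0.068, Pxn at -0.087 and Zyx at -0.011. That offset also called Tln1 lower (edgeR adjusted p 0.0333) and ended the calls of Itgb8, Tln2 and Git2. Leaving out each library in turn gave -0.26 to 0.00065 for Itgb4, -0.035 to 0.023 for Tln1, -0.038 to 0.039 for Fermt2 and -0.018 to 0.068 for Zyx. All paralog ratios and class shares kept their direction without any 1 library, and the shares did so with deposited FPKM; the laminin-binding gain then lay between 24.7 and 25.95 percentage points.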

Other observations

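The actin and myosin genes to which focal adhesions connect fell more often than they rose. Of 33 tested, 18 were lower (54.5%), 9 were higher (27.3%) and 6 were not called in induced cells. Their median log2 fold change was -0.29. Over all tested genes 32.2% were lower, 32.6% were higher and the median was -0.01. Cnn1, a calponin of smooth muscle, fell from 4.20 ± 0.479 to 0.488 ± 0.147 RPKM, and Lmod1, a leiomodin, fell from 3.26 ± 0.334 to 0.984 ± 0.116 RPKM (SD, n = 3; edgeR adjusted p 4.90e-11 and 2.05e-09). Mylk, the myosin light chain kinase, rose from 15.03 ± 1.15 to 35.2 ± 0.987 RPKM, and the regulatory light chain gene Myl12b rose from 1.18 ± 0.242 to 3.87 ± 0.178 RPKM (SD, n = 3; edgeR adjusted p 7.13e-13 and 1.07e-08). Another gene model of the same name and strand covers 26.7% of the exon sequence of this Myl12b entry, so its level is uncertain.

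Integrin chains that are best known from blood cells were also present, and were named after their values were seen. Itgal, the alpha chain of a leukocyte integrin, had 11, 7 and 3 reads in the control libraries and 57, 84 and 60 in the induced libraries. It passed the filter on low counts through the induced group, so no test is given. Its partner Itgb2 had 364 and 452 reads (edgeR adjusted p 0.0221). Itga2b, the platelet alpha chain, had 840 and 388 reads (edgeR adjusted p 1.14e-07). The pan-leukocyte gene Ptprc had 0 reads in all 6 libraries, which allows up to 0.158 CPM in a library. Itgam and Itgad also had 0 reads, but 68.7% and 19.7% of their exon bases are shared with other genes, so that these counts are uncertain.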
